A study of Mus musculus with 1545 samples.

Results

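Axon guidance ligands and receptors were described across the neuron types of the mouse spinal cord dorsal horn. They were taken from a deposited table of molecule counts as every gene whose symbol belongs to the class 3 to 7 semaphorins, plexins, neuropilins, ephrins, Eph receptors, Slits, Robos, netrins, netrin-Gs, Unc5 receptors or Dcc. Of the 24378 genes in the table, 71 matched, and the 56 with at least 50 molecules over all cells are reported with values. The table held 1545 single neurons from mice of 17 to 28 days. The vGat-Cre-tdTomato line, in which the gene of the vesicular GABA transporter drives Cre and thereby a red reporter, gave 537 cells. The vGlut2-eGFP line, in which the gene of a vesicular glutamate transporter drives a green reporter, gave 371 cells. Wild-type C57bl6 mice without a reporter gave 637 cells. The study sorted the cells into 30 types, 14 inhibitory (Gaba2 to Gaba15) and 15 excitatory (Glut1 to Glut15), and 1 type of 18 cells whose labels name both classes and which was kept out of class and type comparisons.

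Guidance cues are secreted or membrane-bound ligands that attract or repel growing axons, and the receptors on the growth cone turn them into changes of the cytoskeleton. Semaphorins act through plexins, the secreted ones mostly with a neuropilin as partner, while ephrins act through Eph receptors, Slits through Robos, and netrins through Dcc and the Unc5 receptors. In the embryonic spinal cord these systems steer commissural axons at the midline and the ingrowth of sensory fibres, and many of the genes stay on in mature neurons, where they act at synapses.

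Cells are not replicates and the labels name no single mouse, so counts were summed per animal set, meaning all cells that share line, sex label and age label. There were 3 vGat sets (17, 18 and 24 days), 4 vGlut2 sets (23, 24, 25 and 26 days) and 10 wild-type sets (18 to 28 days), and the wild-type sets of 22 days, labelled male and female, may come from the same mice. Cells held 3012 to 32886 molecules, with medians of 10413 in the vGat line, 7030 in the vGlut2 line and 8687 in wild type. Each capture run held 1 line, so effects of line and of run cannot be told apart. The reporter labels matched their markers: the summed excitatory markers reached 0 to 1.15 molecules of a gene per 1000000 molecules (CPM) in vGat sets and 578.3 to 1406 CPM in vGlut2 sets, and the inhibitory markers 1448 to 1528 CPM in vGat sets and 7.16 to 307.99 CPM in vGlut2 sets. The 26-day vGlut2 set, with 17 cells, stood apart, with the highest inhibitory marker level of its line and 5 cells of inhibitory types. Markers of oligodendrocytes (8 genes) summed to 35953 CPM in that set, against 76.01, 76.54 and 1919 CPM in the 23-, 24- and 25-day vGlut2 sets, where 4, 6 and 0 of the 8 genes were at 0. They summed to 1306 to 4236 CPM in vGat sets, and in wild-type sets to 17390 to 34982 CPM in inhibitory and 14001 to 52211 CPM in excitatory cells. Values without the 26-day set stand beside the results that it moves.

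The 71 genes together held 31639 of 14853604 molecules, or 0.213%. Semaphorins took 25.7% of these (17 of 20 members with at least 50 molecules), Eph receptors 18.0% (10 of 14), plexins 17.8% (8 of 9), ephrins 14.3% (7 of 8), Unc5 receptors 7.25% (4 of 4), neuropilins 6.87% (both), Robos 5.21% (3 of 4) and Slits 1.49% (2 of 3). Dcc took 1.49%, the netrin-Gs 1.31% (1 of 2) and the netrins 0.559% (1 of 4). The 37 ligand genes held 13738 molecules and the 34 receptor genes 17901. Counts were not scaled by gene length, so an order of genes by molecules is an order of counts. The most counted members were Efnb3 (2965 molecules), a membrane-bound ephrin known as a midline barrier of the spinal cord, the transmembrane semaphorin Sema5a (2079), the semaphorin co-receptor Nrp1 (2055) and the plexin Plxna2 (2051). Epha5 (1389), Robo2 (1317), Sema6d (1061) and Plxna4 (1011) followed, then Ephb1 (975), Efna5 (936), Ephb6 (880), Sema6a (854), Unc5c (777), Epha10 (680) and Unc5d (679). Netrin cues were scarce: Ntn1, the classical attractant of the floor plate, had 26 molecules, Ntn5 had 6 and Ntn4 had 2, while Ntn3 reached 9.63 CPM over all cells.

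The members just above the limit of 50 molecules were Efna3 with 52 and Sema4b with 55, and the member just below it was Sema5b with 49. The others below it were Plxnd1 (45), Ephb3 (41), Slit3 (27), Sema3b (9), Robo4 (8), Epha1 (7), Ephb4 (6), Epha2 (4), Ntng2 (2), Efna4 (1) and Sema3g (1), besides the 3 netrins. In the types, all members together reached 1538 CPM (Gaba5, 19 cells) to 2501 CPM (Glut4, 34 cells), and Gaba3 was close to Glut4 with 2499 CPM.

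**Figure D1:**
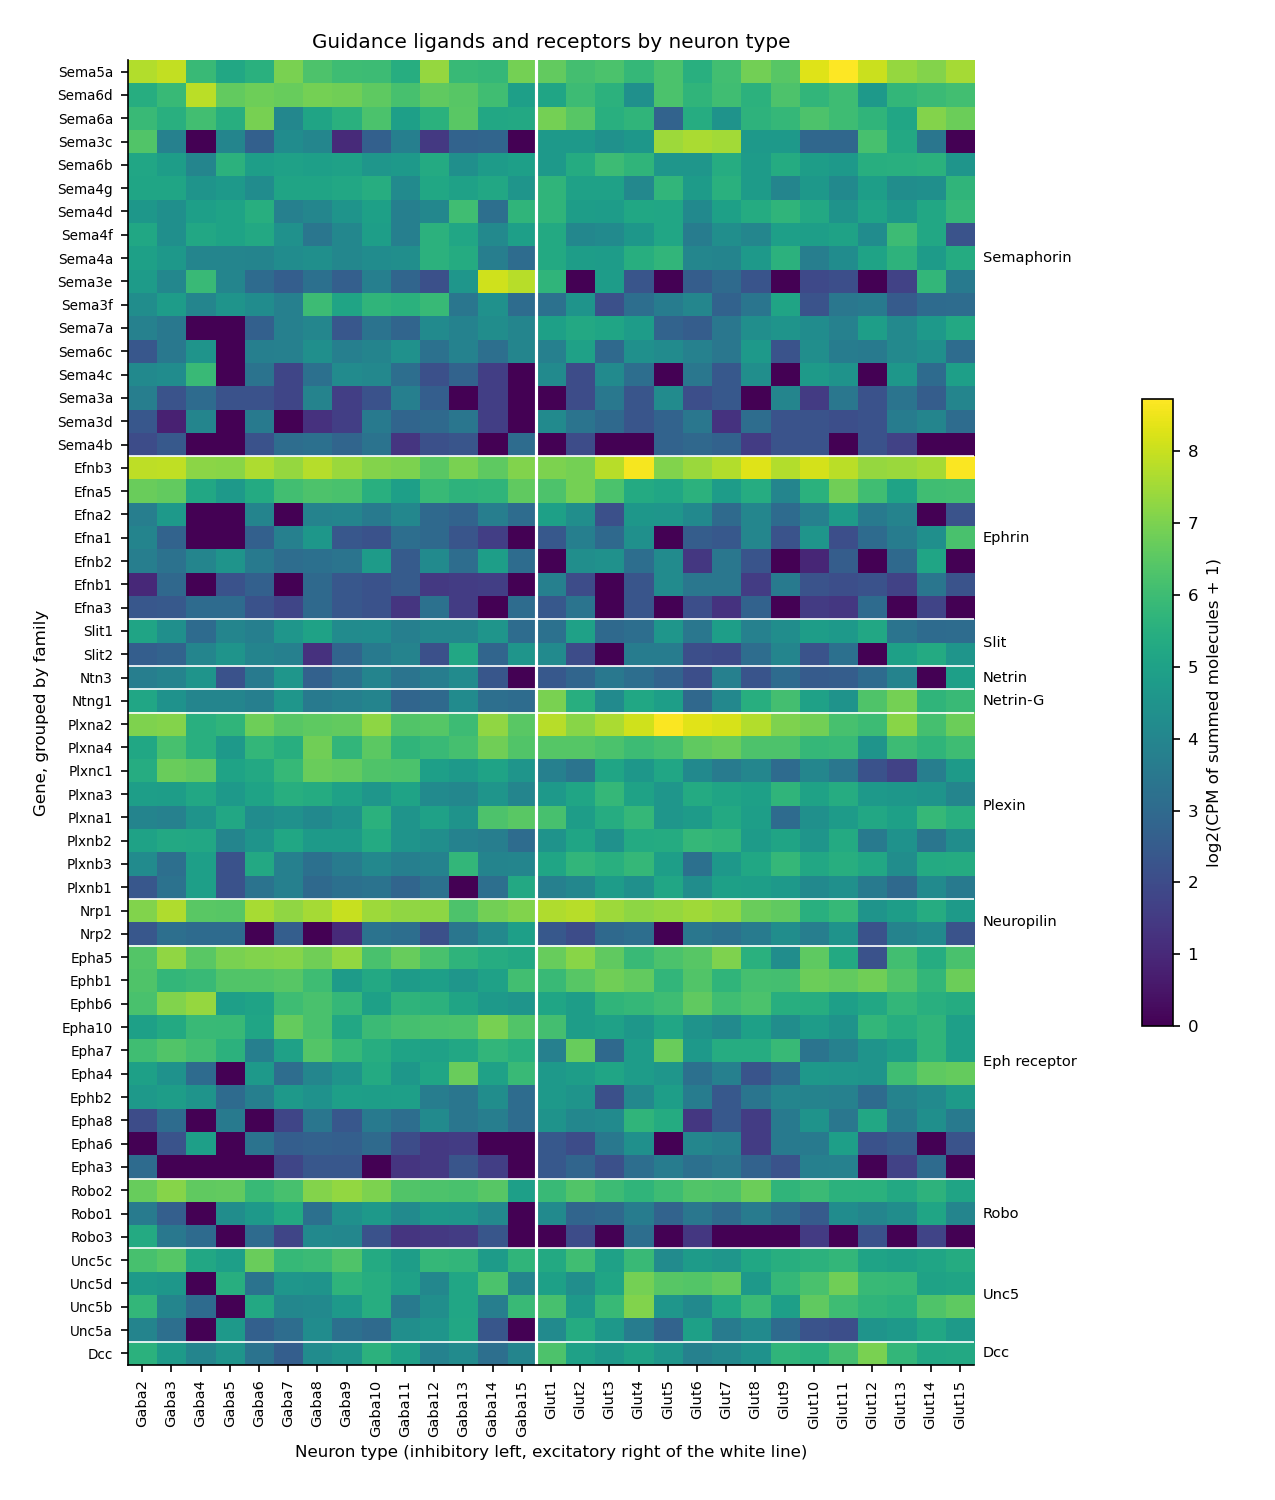
Level of each of the 56 members with at least 50 molecules (down the page, grouped by family) in each of 29 neuron types (across, inhibitory left and excitatory right), as log2(CPM of summed molecules + 1). Efnb3 is bright across the page, and Nrp1 and Plxna2 in most types, Nrp1 being dimmer in Glut10 to Glut15 (lowest 21.8 CPM, in Glut12). Sema3e is bright in Gaba14 (274.4 CPM) and Gaba15 (222.5 CPM) and Sema3c in Glut5, Glut6 and Glut7 (174.1 to 197.7 CPM).

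Whether a member varies among types was tested in 1 fit per class with edgeR's quasi-likelihood test on sums of at least 2 cells per animal set and type, the set being a block. The types were clustered by the study from these same cells, so these tests are not independent evidence that the types differ. They give the size of a difference against the spread between sets. Among inhibitory types 16 of the 22 members tested varied, where 21.9% of the 4761 genes tested did. Among excitatory types 6 of 12 did, where 17.8% of 3284 genes did. Each type was also set against the average over the remaining types in its class, and of the tests on 25 members 31 gave a higher and 2 a lower level, where 1.99% of all 115914 tests gave a higher and 0.491% a lower one. Without the filter on low counts, the shares were 28 of 56 members (9.49% of genes) among inhibitory and 21 of 56 (6.56% of genes) among excitatory types. Here and below, p-values without the filter rest mostly on a spread shared over genes, and are smaller for that reason. Of 1624 tests of members in single types without the filter, 67 gave a higher and 1 a lower level, where 0.925% and 0.122% of all tests did. With wild-type cells alone, 2 of the 14 members tested varied among inhibitory types, where 9.16% of 3046 genes did. Levels by type are sums over the cells of all lines, and the lines take different shares of each type. Cells of the vGlut2 line made up most of Glut5 to Glut7, and wild-type cells most of Glut10 to Glut15, so that a pooled order of types can also hold a difference between lines.

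Sema3e is a secreted semaphorin that, unlike most of its class, binds the plexin Plxnd1 without a neuropilin. It held 274.4 CPM (95% Poisson interval 229.9 to 324.96) in the 41 cells of Gaba14, labelled GABA_Crabp1, and 222.5 CPM (150.1 to 317.7) in the 11 cells of Gaba15, labelled GABA_Crabp1_Spp1. The median over the types was 7.19 CPM, and 4 types had no molecule. Over the 7 animal sets with Gaba14 cells the lowest level was 215.5 CPM, the median 270.03 CPM and the highest 500.6 CPM, so no set lacked the gene. Gaba14 was 4.32 ± 0.30 (SE) above the mean of the other inhibitory types on the log2 scale (edgeR adjusted p = 7.08e-21) and Gaba15 3.27 ± 0.75 (adjusted p = 0.00357, 2 sets, lost with wild-type cells alone and without the 17-day vGat set). After each cell was thinned to 3000 molecules, 53.7% of Gaba14 cells kept a Sema3e molecule (exact binomial 95% interval 37.4 to 69.3%), against 0 of the thinned cells of Gaba9 (up to 4.25%) and Gaba12 (up to 6.38%). With wild-type cells alone the difference in Gaba14 was 5.07 with an adjusted p of 1, and the wild-type level there was 245.5 CPM, against 292.3 CPM in reporter cells. Among excitatory types Sema3e was tested only without the filter, and was then higher in Glut14 (53.9 CPM, log2 difference 3.51, edgeR adjusted p = 6.85e-08) and Glut1 (51.2 CPM, 2.80, adjusted p = 0.000976).

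Sema3c, a secreted semaphorin that signals through neuropilin complexes, marked another set of types. It had 174.1 CPM (interval 117.5 to 248.6) in Glut5, 197.7 CPM (163.8 to 236.5) in Glut6 and 181.1 CPM (150.9 to 215.7) in Glut7, the 3 excitatory types named after Tac2. It was listed at 0 in Glut15, Gaba4 and Gaba15, and the median over the types was 14.6 CPM. Set values in Glut6 had a lowest of 42.3 CPM, a median of 185.9 CPM and a highest of 281.4 CPM, and those in Glut7 a lowest of 54.4 CPM, a median of 180.8 CPM and a highest of 447.1 CPM. Sema3c was thus seen in each of the 10 sets of both types, while 2 of the 5 sets of Glut5 had no molecule. The log2 differences from the other excitatory types were 2.92 ± 0.40 in Glut7 (edgeR adjusted p = 2.04e-08), 2.71 ± 0.39 in Glut6 (adjusted p = 1.83e-07) and 2.56 ± 0.58 in Glut5 (adjusted p = 0.00266). The calls in Glut6 and Glut7 held in all 22 alternatives run, while that in Glut5 turned to -2.69 (adjusted p = 1) with wild-type cells alone, of which Glut5 has 8. The Glut5 call was also lost with sums of at least 5 cells (2.11, adjusted p = 0.377) and without the 23-day vGlut2 set (1.85, adjusted p = 0.167). Among inhibitory types Gaba2 led with 81.3 CPM (64.4 to 101.3), and the gene passed the test there only without the filter (log2 difference 3.76 ± 0.37, adjusted p = 4.22e-21), since its summed counts in inhibitory types were too low for the filter.

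Sema3c (chr5:17574281-17730268, plus strand) and Sema3e (chr5:14025276-14256689, plus strand) are protein-coding genes of the same chromosome, in GENCODE M21 coordinates (GRCm38). Their upstream sequences are shown because both genes had a pattern by type, led by different types. The 250 bases before the RefSeq start (GRCm38.p6) are given on the gene's strand, 5′ to 3′, with capitals for the E-box CANNTG, the core motif of basic helix-loop-helix factors, searched on both strands (it is its own reverse complement).
Sema3c, chr5:17574566-17574815: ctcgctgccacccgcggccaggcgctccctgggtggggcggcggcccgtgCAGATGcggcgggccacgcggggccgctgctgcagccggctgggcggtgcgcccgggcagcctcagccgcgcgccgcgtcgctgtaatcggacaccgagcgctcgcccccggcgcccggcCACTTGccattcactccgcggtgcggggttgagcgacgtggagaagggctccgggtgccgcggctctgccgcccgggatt
Sema3e, chr5:14025026-14025275: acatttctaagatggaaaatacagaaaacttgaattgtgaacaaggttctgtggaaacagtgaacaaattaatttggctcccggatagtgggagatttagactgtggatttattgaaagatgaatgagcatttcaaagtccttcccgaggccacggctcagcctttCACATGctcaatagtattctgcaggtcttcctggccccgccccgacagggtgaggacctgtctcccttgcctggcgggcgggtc
The Sema3c window lies within the GENCODE span of the gene, past its start, while the Sema3e window ends just before its span. The Sema3c window holds 2 E-boxes and 78.4% G or C, and the Sema3e window 1 E-box and 48% G or C. An E-box was found in 46.9% of 64 windows of the list (48 members matched), against 66.2% of all 32851 windows. The homeodomain core TAATTA is in neither window and in 4.69% of the list's windows, against 4.84% of all windows. These are matches of letters and say nothing of factor binding.

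**Figure D2:**
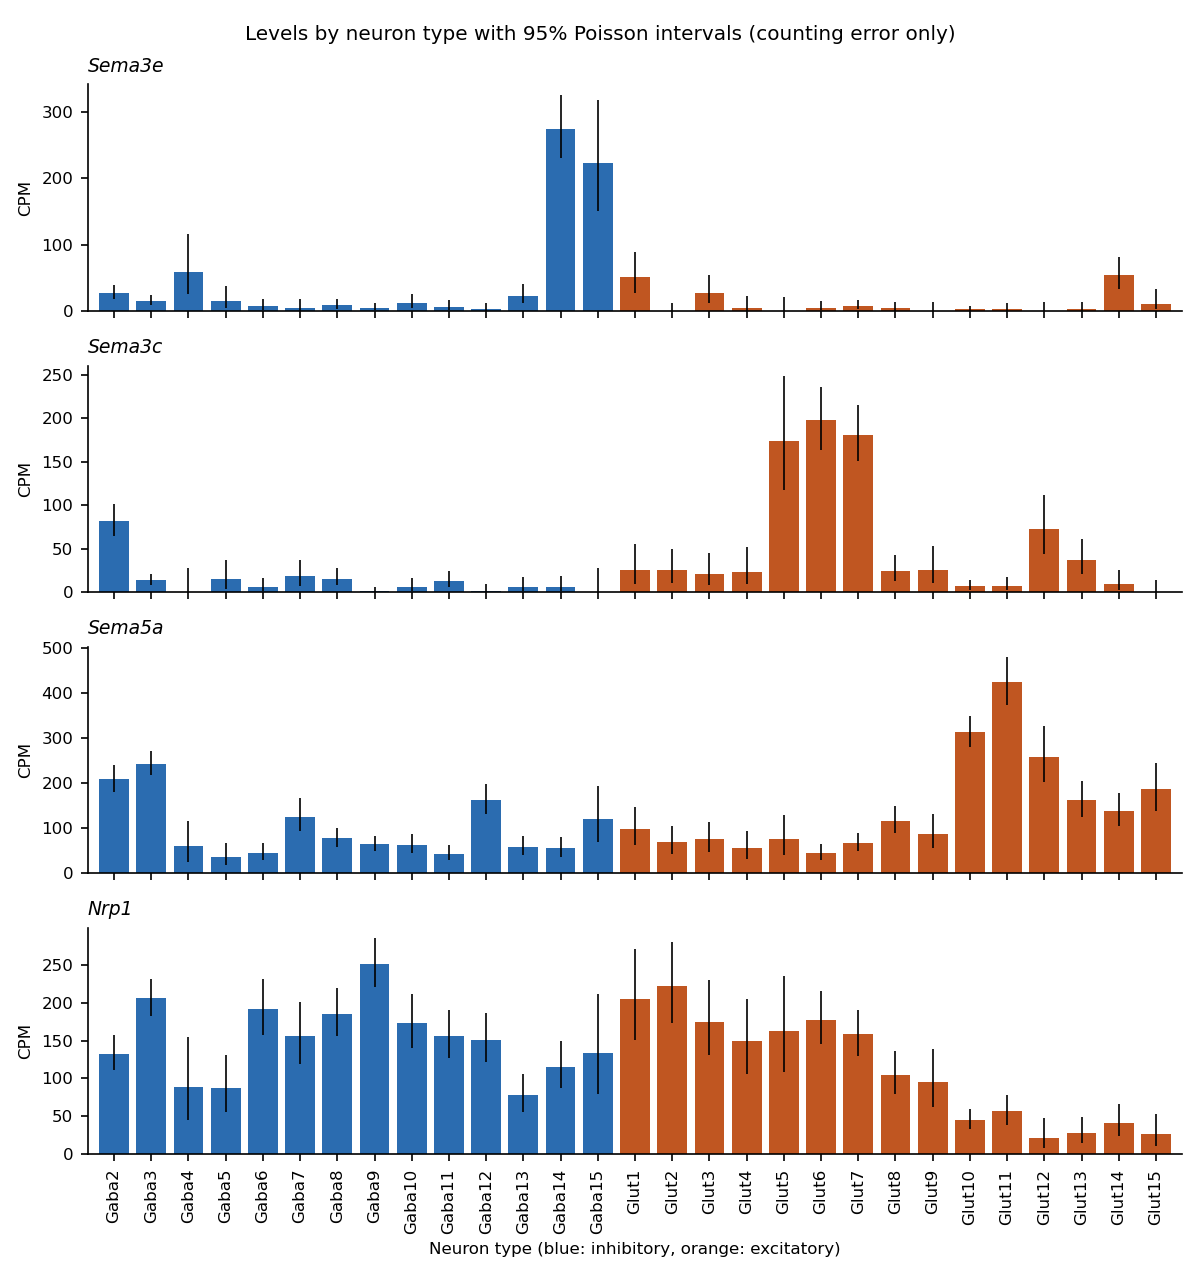
CPM of summed molecules of Sema3e, Sema3c, Sema5a and Nrp1 in the 29 neuron types, bars with exact 95% Poisson intervals that cover counting error only (blue inhibitory, orange excitatory). Sema3e stands out in Gaba14 and Gaba15, Sema3c in Glut5 to Glut7 and Gaba2, Sema5a in Glut10 to Glut12, and Nrp1 is lowest in Glut10 to Glut15 (21.8 to 56.2 CPM), in cells of all lines together.

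Sema5a, a transmembrane semaphorin with thrombospondin repeats, was high in types of both classes. It reached 423.3 CPM (373.01 to 478.4) in Glut11, 312.2 CPM (279.6 to 347.5) in Glut10 and 257.7 CPM (201.3 to 325.1) in Glut12, against 44.9 CPM in Glut6. Over 9 sets of Glut11 the lowest level was 207.3 CPM, the median 408.5 CPM and the highest 564.8 CPM, and over 12 sets of Glut10 the lowest was 224.8 CPM, the median 300.3 CPM and the highest 778.7 CPM. Both types named after Tac1 thus lay above the Glut6 level in each of their sets. The log2 differences were 1.98 ± 0.24 in Glut11 (edgeR adjusted p = 2.26e-10), 1.78 ± 0.21 in Glut10 (adjusted p = 1.67e-10) and 1.32 ± 0.32 in Glut12 (adjusted p = 0.00599). The calls in Glut11 and Glut10 held in all 22 alternatives run, and that in Glut12 was lost with sums of at least 5 cells and without the 18-day or 27-day wild-type set. Among inhibitory types Sema5a was higher in Gaba3 (242.1 CPM, 1.79 ± 0.25, adjusted p = 7.79e-08), Gaba2 (207.9 CPM, 1.56 ± 0.25, adjusted p = 3e-06), both named after galanin, and Gaba12 (161.3 CPM, 1.25 ± 0.33, adjusted p = 0.0152), with its lowest level of 36.5 CPM in Gaba5. With wild-type cells alone these 3 calls were lost, and that in Gaba12 was also lost without any 1 of the 3 vGat sets. The type profile of Sema5a in reporter cells resembled that in wild-type cells over 13 excitatory types (r = 0.927) and 14 inhibitory types (r = 0.719), given as a description of types that share libraries.

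Of the other semaphorins, Sema3f, which acts mainly through the neuropilin Nrp2, was higher in Gaba8 (62.3 CPM, log2 difference 1.84 ± 0.42, edgeR adjusted p = 0.00309) and Gaba12 (58.3 CPM, 1.68 ± 0.46, adjusted p = 0.0216). Both calls were lost with wild-type cells alone and with sums of at least 5 cells. That in Gaba12 was also lost without the 17-day or 18-day vGat set or the 20-day wild-type set. Its lowest level was 3.43 CPM in Glut3. Sema6a, a transmembrane ligand of Plxna2 and Plxna4, was higher in Gaba6 (121.2 CPM, 1.76 ± 0.51, adjusted p = 0.0406) and had its lowest level, 5.80 CPM, in Glut5. That call was lost in 6 of 22 alternatives, among them each vGat set left out. Sema6d, a transmembrane ligand of Plxna1, had 228.1 CPM in the 11 cells of Gaba4 and 19.7 CPM in Glut4, and missed the threshold among inhibitory types (edgeR adjusted p = 0.0809).

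Ephrins are membrane-bound, so that they act where cells touch. Over cells of all lines, Efnb3 had its highest levels in Glut15 (404.6 CPM), Glut4 (393.3 CPM) and Glut8 (315.6 CPM) and its lowest in Gaba12 (89.2 CPM). Its level was lower in both reporter lines than in wild type, and 20 of the 22 Glut15 cells were wild type while 43 of the 56 Gaba12 cells were of the vGat line. In wild-type cells alone Gaba8 led with 573.3 CPM, before Glut4 (546.95 CPM), Gaba6 (442.3 CPM) and Glut8 (418.8 CPM). In reporter cells the leading types were Glut8 among excitatory (218.1 CPM) and Gaba3 among inhibitory types (191.8 CPM). It passed the test in Glut8 (log2 difference 0.90 ± 0.27, edgeR adjusted p = 0.0489), Gaba3 (0.83 ± 0.20, adjusted p = 0.00467) and Gaba8 (0.80 ± 0.24, adjusted p = 0.0441). The calls in Glut8 and Gaba8 were lost in 15 and 10 of 22 alternatives, and that in Gaba3 with wild-type cells alone. Efna5, a GPI-anchored ephrin known from sensory map formation, was higher in Gaba3 (97.7 CPM, 0.94 ± 0.28, adjusted p = 0.0493), a call lost in 15 of 22 alternatives, and had its lowest level of 14.6 CPM in Glut9. Among the smaller ligand families, Ntng1, a GPI-anchored netrin-G that binds a leucine-rich repeat protein and not Dcc, had 123.8 CPM in Glut1, 118.9 CPM in Glut13 and 6.25 CPM in Gaba11. It passed the type test only without the filter, in Glut1 (log2 difference 2.00, edgeR adjusted p = 0.000945), Glut13 (1.68, adjusted p = 0.00101) and Gaba2 (1.42, adjusted p = 0.0286). Slit1 stayed between 6.86 CPM (Glut3) and 36.3 CPM (Glut12), and Slit2 reached 39.2 CPM in Glut14.

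Receptors varied along other lines. Nrp1, the neuropilin that binds secreted semaphorins, had 251.3 CPM (220.6 to 285.1) in Gaba9, 221.9 CPM (173.3 to 279.96) in Glut2 and 205.8 CPM in Gaba3. Its 6 lowest levels were those of Glut10 to Glut15, from 21.8 CPM in Glut12 to 56.2 CPM in Glut11, and the next was 77.6 CPM in Gaba13. These 6 types hold 24.9% of the excitatory vGlut2-line cells and 56.6% of the wild-type ones, and Nrp1 was higher in the line. Within the vGlut2 line, Glut10, Glut11, Glut13 and Glut14 (37.9 to 88.4 CPM) were also the lowest of 13 excitatory types with at least 5 cells. In wild-type cells alone Gaba5 (10.98 CPM) and Gaba13 (16.3 CPM) lay below Glut12 (19.8 CPM), and Glut9 (35.3 CPM) and Glut8 (54.8 CPM) below Glut11 (58.8 CPM). Over the 6 sets of Gaba9 the lowest level was 157.7 CPM, the median 262.7 CPM and the highest 315.5 CPM. The log2 differences were 1.61 ± 0.35 in Glut2 (edgeR adjusted p = 0.00132), 1.15 ± 0.33 in Glut6 (adjusted p = 0.0297) and 1.04 ± 0.22 in Gaba9 (adjusted p = 0.00119). The call in Glut2 was lost with sums of at least 5 cells. The call in Glut6 was lost with wild-type cells alone, with sums of at least 5 cells and without the 23- or 25-day vGlut2 set or the 19- or 28-day wild-type set, and that in Gaba9 with wild-type cells alone and without the 17-day vGat set. The second neuropilin, Nrp2, had 120 molecules in all and at most 29.7 CPM, in Gaba15.

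Plxna2, a plexin that carries signals of class 3 and class 6 semaphorins, had its highest levels over cells of all lines in the Tac2 types that led for Sema3c, with 406.3 CPM (316.7 to 513.4) in Glut5, 322.3 CPM (278.5 to 370.9) in Glut6 and 291.8 CPM in Glut7. Most cells of these types are of the vGlut2 line, where Plxna2 was higher than in wild type. In that line alone Glut4 led with 458.8 CPM, before Glut5 (446.8 CPM), Glut6 (332.1 CPM) and Glut7 (324.5 CPM). In wild-type cells alone Glut5 led with 322.03 CPM and Glut6 came next, before Glut1 (187.8 CPM) and Glut7 (173.2 CPM), while Glut4 had 165.9 CPM. In Glut6 its lowest level over 10 sets was 144.8 CPM, the median 299.3 CPM and the highest 521.2 CPM. The log2 differences were 1.25 ± 0.36 in Glut5 (edgeR adjusted p = 0.0384), 1.08 ± 0.25 in Glut6 (adjusted p = 0.00362) and -1.15 ± 0.32 in Glut11 (72.8 CPM, adjusted p = 0.0296). The calls in Glut5 and Glut11 were each lost in 10 of 22 alternatives, and that in Glut6 with wild-type cells alone, with sums of at least 5 cells and without the 19-day wild-type set. Among inhibitory types Plxna2 was higher in Gaba14 (153.6 CPM, 0.89 ± 0.25, adjusted p = 0.0295) and Gaba10 (151.5 CPM, 0.83 ± 0.24, adjusted p = 0.037), lost in 5 and 8 of 21 alternatives, and its lowest level was 44.1 CPM in Gaba4. Plxnc1, the receptor of Sema7a, varied among inhibitory types (edgeR adjusted p = 0.00104) with no single type past the threshold. It had 106.6 CPM in both Gaba3 and Gaba8, 98.7 CPM in Gaba9 and 2.33 CPM in Glut13. Plxna4, which pairs with neuropilins or binds class 6 semaphorins, varied among inhibitory types too (adjusted p = 0.0319), with 113.5 CPM in Gaba8, 112.6 CPM in Gaba14 and its lowest level of 21.8 CPM in Glut12. Plxnb3 was higher in Gaba13 (54.3 CPM, log2 difference 2.50 ± 0.61, adjusted p = 0.00709), where oligodendrocyte markers summed to 20222 CPM, against 3245 to 19309 CPM in the other inhibitory types. Their part in this value was not tested. The Plxnb3 call was lost with DESeq2.

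Among Eph receptors, Epha5 had 156.8 CPM in Gaba9, 155.5 CPM in Gaba3 and 143.8 CPM in Glut2. In Glut12 it was nearly missing, with 1 molecule in 35 cells (3.63 CPM, interval 0.0919 to 20.2) and 7 of 8 sets at 0. Its log2 differences were -3.19 ± 0.84 in Glut12 (edgeR adjusted p = 0.0147) and 1.25 ± 0.36 in Glut7 (132.3 CPM, adjusted p = 0.0298), and both calls were lost with wild-type cells alone. The call in Glut12 was also lost without the 27-day or the 19-day wild-type set. The difference was -2.61 without the 19-day set and -4.71 without the 28-day set. That in Glut7 was also lost with sums of at least 5 cells and without the 18- or 20-day wild-type or the 23-day vGlut2 set. Ephb6, which lacks kinase activity, was higher in Gaba3 (133.3 CPM, 114.5 to 154.2, log2 difference 1.73 ± 0.28, adjusted p = 6.1e-06), and this call held in all 21 alternatives run. Gaba4 had the highest Ephb6 level (161.8 CPM in 11 cells) and Gaba15 the lowest (22.3 CPM). Epha4, a receptor of both ephrin classes that shapes locomotor and corticospinal circuits, was higher in Gaba13, the type named after Sst (104.7 CPM, 2.83 ± 0.50, adjusted p = 5.77e-05), and each of its 6 sets had 87.1 CPM or more. The part of the oligodendrocyte markers in it was not tested either. Epha10, also without kinase activity, was higher in Gaba14 (120.8 CPM, 1.28 ± 0.31, adjusted p = 0.00618) and had its lowest level in Glut7 (17.3 CPM). Both calls were lost without the 17-day vGat set. With 1 set left out, the log2 differences stayed at 2.74 to 2.96 for Epha4 and 1.22 to 1.29 for Epha10. Ephb1, a receptor of B-class ephrins, varied among inhibitory types (adjusted p = 0.00111) with none called alone, and ran from 23.3 CPM in Gaba13 to 113.2 CPM in Glut3.

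The receptors of Slits and netrins gave few calls. Unc5d, a netrin receptor that also binds Flrt proteins, was higher in Gaba14 (75.8 CPM, log2 difference 1.74 ± 0.50, edgeR adjusted p = 0.0351, lost without the 17-day vGat or the 27-day wild-type set). Its highest levels were those of Glut4 (117.99 CPM) and Glut11 (112.4 CPM), which passed the test without the filter (1.46, adjusted p = 0.0364, and 1.69, adjusted p = 0.000295). Robo3, known from commissural neurons before they cross the midline, had 38 of its molecules in the 87 cells of Gaba2 (39.1 CPM, 27.7 to 53.7), and 11 types had none. It was too low for the filter, and without it Gaba2 was 3.18 ± 0.47 higher (edgeR adjusted p = 1.05e-08). Dcc, the attractive netrin receptor, reached 123.4 CPM in Glut12 and 5.12 CPM in Gaba7, with a difference in Glut12 of 1.71 ± 0.42 without the filter (adjusted p = 0.00723). Robo2, the most counted Slit receptor, ran from 29.7 CPM in Gaba15 to 156.8 CPM in Gaba9 and missed the threshold among the types of either class (adjusted p = 0.101 in inhibitory and 0.782 in excitatory types).

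The reporter lines allow a comparison of inhibitory and excitatory neurons in which the line label does not come from the cells' RNA. Of 45 members tested between 3 vGat and 4 vGlut2 sets, 7 were higher in the vGat line, where 4.32% of 10598 genes were, and 6 lower, where 4.53% of genes were. The median log2 difference was -0.15 over members and -0.01 over all genes. In 10 of the 13 called members the sets of the lines did not overlap, which held for 75.6% of all 938 genes called. Of the 45 members tested 17 did not overlap, where 17.8% of all genes tested did not. The 24-day vGlut2 set held 104516 molecules, so that 1 molecule of a gene is 9.57 CPM there. Sema3e, Sema3f, Sema6a, Plxnb1, Plxnc1 and Epha3 stood at that level, so these values rest on 1 molecule each. Without the filter 11 of 56 members were higher, where 3.59% of genes were, and 6 lower, where 3.76% were. Without the 26-day vGlut2 set the counts were 9 higher and 7 lower of 45, where 6.93% and 6.83% of genes were. Without the 25-day set, which holds most of the vGlut2 cells, they were 1 higher and 2 lower of 36, where 2.13% and 2.26% of genes were. The lines also differ in age, and with age as a covariate only Plxnc1, Sema3c and Ntng1 kept their call (limma on means of single cells kept Plxnc1 and Sema3c). Lists of markers chosen for cells other than dorsal horn neurons also differed between the lines without overlap. Endothelial markers (5 genes) summed to 20.6 to 26.7 CPM in vGat sets, against 82.3 to 251.4 CPM in vGlut2 sets, with 1 to 3 and 0 to 4 of the genes at 0. Markers of ganglion sensory neurons (5 genes) summed to 105.7 to 145.6 CPM in vGat sets, against 194.8 to 382.7 CPM in vGlut2 sets, with 2 to 4 and 1 to 4 at 0, and those of oligodendrocyte precursors (3 genes) to 0.569 to 2.94 CPM, against 5.62 to 18.9 CPM in vGlut2 sets. The ganglion list also varied among the neuron types, from 7.26 CPM in Glut12 to 448.5 CPM in Glut6, so it may not stand for ganglion neurons alone. The part of these lists in the results was not tested. In sums over cells, a different mix of types and a different level per cell cannot be told apart.

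Among ligands, Sema3c was lower in the vGat line. Its levels were 11.4, 16.9 and 24.2 CPM in the 17-, 18- and 24-day vGat sets, against 86.9, 86.1, 101.2 and 37.7 CPM in the 23-, 24-, 25- and 26-day vGlut2 sets. The log2 difference was -2.38 ± 0.27 (edgeR adjusted p = 1.91e-05), and it held in all 12 alternatives run. Ntng1 was lower as well, with 17.6, 17.2 and 11.8 CPM in the vGat sets, against 65.2, 38.3, 32.2 and 25.1 CPM in the vGlut2 sets (-1.39 ± 0.32, adjusted p = 0.0104). The groups did not overlap, but the call was lost without the 23-day vGlut2 set (adjusted p = 0.0685). Sema3e was higher, with 35.8, 29.5 and 32.3 CPM in vGat sets, against 13.0, 9.57, 10.2 and 12.6 CPM in vGlut2 sets (1.52 ± 0.30, adjusted p = 0.00361, and 0.124 without the 25-day set). Sema3f was higher with 25.0, 26.4 and 32.3 CPM in vGat sets, against 13.0, 9.57, 9.71 and 18.9 CPM in vGlut2 sets (1.26 ± 0.33, adjusted p = 0.0229). Sema6a was higher with 23.3, 42.9 and 27.2 CPM, against 8.69, 9.57, 15.3 and 12.6 CPM in the vGlut2 sets (1.22 ± 0.34, adjusted p = 0.0358). The Sema3f call was lost when the 18-day vGat, 24-day vGat or 25-day vGlut2 set was left out, and the Sema6a call held only when the set left out was the 17-day vGat or the 26-day vGlut2 one.

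Among receptors, Plxnc1 was higher in the vGat line. It had 79.1, 84.7 and 69.005 CPM in vGat sets, against 19.6, 9.57, 16.9 and 37.7 CPM in vGlut2 sets. The groups lay apart, and the log2 difference was 2.01 ± 0.26 (edgeR adjusted p = 7.69e-05) and passed in all 12 alternatives. Plxnb1, a receptor of Sema4d, was lower in the vGat line with 1.14, 3.45 and 4.41 CPM, against 10.9, 9.57, 21.5 and 31.4 CPM in the vGlut2 sets (-2.68 ± 0.48, adjusted p = 0.00153). Plxna2 was lower with 106.9, 137.5 and 121.9 CPM, against 221.5, 267.9, 280.2 and 94.3 CPM in the vGlut2 sets (-0.90 ± 0.25, adjusted p = 0.0312). The 26-day set lay below all vGat sets there, and of the settings that left out 1 set the call held only without that one (-1.08, adjusted p = 4.95e-06). Epha3, an A-class Eph receptor, was lower with 1.71, 3.45 and 0 CPM in vGat sets, against 8.69, 9.57, 14.8 and 0 CPM in vGlut2 sets (-2.50 ± 0.62, adjusted p = 0.0165), so that both lines held a set without a molecule. Only 7 alternatives tested it, 2 of them with 1 set left out. The call was lost in 4 of the 7, among them DESeq2 and the fit without the 24-day vGat set (edgeR adjusted p = 0.0725). Epha10 was higher with 61.4, 69.3 and 64.6 CPM in vGat sets, against 23.9, 19.1, 32.7 and 56.6 CPM in vGlut2 sets (0.99 ± 0.24, adjusted p = 0.0141, lost without the 18-day vGat or the 23- or 25-day vGlut2 set).

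The netrin receptors Unc5c and Unc5d went in opposite directions. Unc5c, which mediates repulsion by netrin, was higher with 62.6, 71.6 and 65.3 CPM in vGat sets, against 45.6, 38.3, 41.9 and 31.4 CPM in vGlut2 sets (0.65 ± 0.19, edgeR adjusted p = 0.0476). Unc5d was lower with 22.8, 32.6 and 36.7 CPM in vGat sets, against 67.3, 76.5, 82.8 and 31.4 CPM in vGlut2 sets (-1.26 ± 0.24, adjusted p = 0.00228), the 26-day set lying among the vGat sets (-1.36 without it). Robo2 was higher with 113.8, 130.2 and 114.5 CPM in vGat sets, against 76.01, 105.2, 71.1 and 44.0 CPM in vGlut2 sets (0.69 ± 0.21, adjusted p = 0.0483). Leaving out any set but the 26-day one ended the Unc5c call, and leaving out any but the 24-day or 26-day vGlut2 set ended the Robo2 call. The Unc5d call was lost without the 25-day set (adjusted p = 0.0973).

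**Figure D3:**
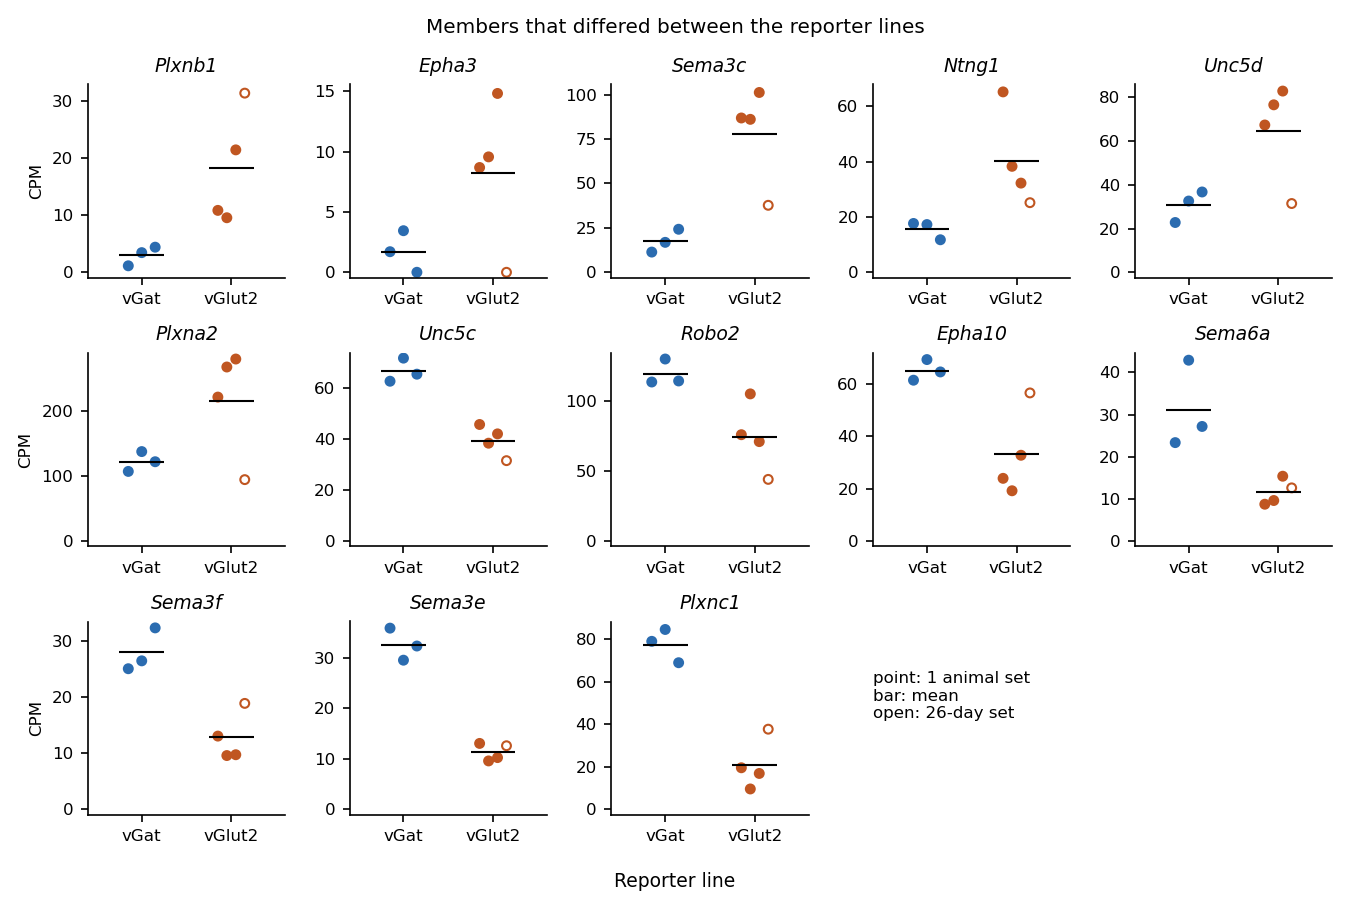
CPM per animal set of the 13 members that differed between the reporter lines, vGat (blue) left and vGlut2 (orange) right, with bars for the means and the 26-day vGlut2 set as an open circle. The groups overlap in Epha3, Unc5d and Plxna2, where the open circle lies at or below vGat sets, and not in the other 10.

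The same contrast was made within wild-type mice, between inhibitory and excitatory types of the 7 animal sets that hold 10 or more cells in both classes, the set being a block. Of 40 members tested, 3 were higher in inhibitory types, where 3.17% of 8135 genes were, and 2 lower, where 2.46% were. Sema3f had a lowest level of 19.9 CPM, a median of 45.2 CPM and a highest of 81.2 CPM in inhibitory types, against 4.90, 6.87 and 11.9 CPM in excitatory types. It was higher in inhibitory types of 7 of 7 sets with no overlap, by 2.29 ± 0.35 (edgeR adjusted p = 0.000145). Sema3e had a lowest level of 7.08 CPM, a median of 39.6 CPM and a highest of 47.04 CPM, against 0, 6.87 and 19.6 CPM in excitatory types, and was higher in 7 of 7 sets (2.04 ± 0.48, adjusted p = 0.0107, and 0.0906 without the 20-day set). Plxnc1 had a lowest level of 10.6 CPM, a median of 31.96 CPM and a highest of 135.7 CPM, against 8.51, 11.9 and 20.9 CPM in excitatory types (1.55 ± 0.40, adjusted p = 0.0206, higher in 6 of 7 sets). Its call was lost without the 19-, 21- or 26-day set.

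Ntng1 was lower in inhibitory types of 7 of 7 wild-type sets, with a lowest level of 4.28 CPM, a median of 15.7 CPM and a highest of 35.4 CPM, against 24.7, 44.9 and 103.1 CPM in excitatory types (-1.54 ± 0.29, edgeR adjusted p = 0.00162, kept in all 13 alternatives). Plxna2 had a lowest level of 64.04 CPM, a median of 76.7 CPM and a highest of 101.8 CPM in inhibitory types, against 79.6, 119.9 and 189.02 CPM in excitatory types (-0.68 ± 0.19, adjusted p = 0.0352, lower in 5 of 7 sets). This call was lost without any 1 of 5 of the sets. Without the filter 4 of 56 members were higher, where 1.67% of genes were, and 4 lower, where 1.79% were. Without the replicate block none of the 3 members called higher was tested, since the filter then kept 25 members. Sema3c, called between the lines, was lower in inhibitory types of 6 of 7 sets and missed the threshold in wild type, with a median of 15.7 CPM in inhibitory and 32.7 CPM in excitatory types (-0.70 ± 0.34, adjusted p = 0.326).

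Lines and wild-type classes share no cells. Of the 13 members called between lines, 12 were tested in wild type, where 5 of them passed the test. The estimates of the 12 had the same sign in wild type, as had those of 661 of 715 genes (92.4%) over the whole table. For Plxnb1 the wild-type estimate was near 0 (-0.06 ± 0.39, edgeR adjusted p = 0.977), and its level was higher in inhibitory types of 4 of 7 sets and lower in 3. Smaller than between lines were also Sema6a (0.20 ± 0.20, adjusted p = 0.731), Epha10 (0.24 ± 0.31, adjusted p = 0.803) and Robo2 (0.29 ± 0.23, adjusted p = 0.615). Unc5c (0.50 ± 0.23, adjusted p = 0.29) and Unc5d (-0.85 ± 0.29, adjusted p = 0.0998) missed the threshold in wild type too, as did Sema3c. The 5 members called in wild type were all called between the lines, which makes 41.7% of the 12 and 100% of the 5. Over all genes the shares were 42.5% of the line calls and 66.8% of the class calls.

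**Figure D4:**
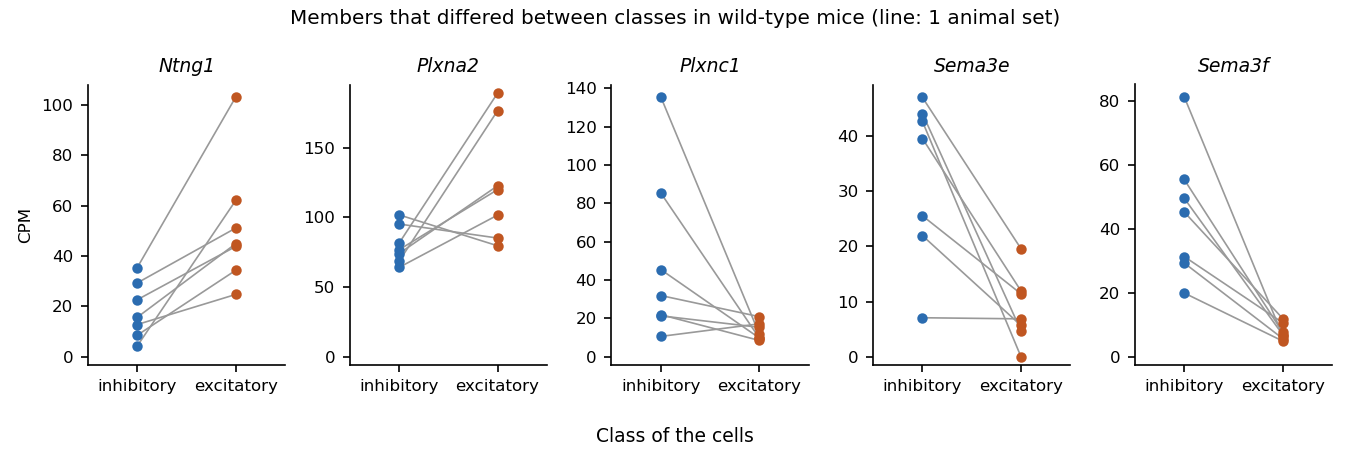
CPM of the 5 members that differed between inhibitory (left, blue) and excitatory types (right, orange) in wild-type mice, each line joining the values of 1 of 7 animal sets. All lines run up for Ntng1 (medians 15.7 and 44.9 CPM) and down for Sema3e and Sema3f, while Plxna2 and Plxnc1 hold sets that run the other way.

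Cells of 1 class were also compared between a reporter line and wild type, a comparison added after the data had been seen. Of 35 members tested in inhibitory types, 4 were higher in 3 vGat sets than in 7 wild-type sets, where 8.34% of 7687 genes were, and 8 lower, where 12.9% were. Of 31 tested in excitatory types, 5 were higher in 4 vGlut2 sets than in 9 wild-type sets, where 4.41% of 7163 genes were, and 11 lower, where 10.7% were. Oligodendrocyte markers moved with these groups: they summed to 1306 to 4236 CPM in inhibitory types of vGat sets, against 17390 to 34982 CPM in wild type, and to 76.5 to 34418 CPM in excitatory types of vGlut2 sets, against 14001 to 52211 CPM in wild type. Other lists lay apart too. Excitatory markers (3 genes) summed to 847.11 to 1406.5 CPM in excitatory types of vGlut2 sets, against 357.99 to 552.13 CPM in wild type. In inhibitory types these excitatory markers summed to 0 to 1.15 CPM in vGat sets, against 7.32 to 50.9 CPM in wild type. Inhibitory markers (5 genes) overlapped between line and wild type in both classes. In inhibitory types, astrocyte markers (6 genes) summed to 63.97 to 74.1 CPM in vGat sets, against 85.5 to 256.3 CPM in wild type, and precursor markers (3 genes) to 0.571 to 2.94 CPM, against 7.08 to 72.7 CPM in wild type. In excitatory types, markers of ganglion sensory neurons (5 genes) summed to 193.4 to 382.7 CPM in vGlut2 sets, against 13.1 to 89.8 CPM in wild type. In both groups 1 to 4 of these genes were at 0 in a set, and the list also varied by type, as given above. The part of these markers in the results was not tested, and effects of the line cannot be told apart from those of its capture runs. The mix of types differed as well: Glut5 to Glut7 held 42.5% of the excitatory cells of the vGlut2 line and 11.97% of those of wild type.

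Unc5b, a repulsive netrin receptor also known from blood vessels, had the largest difference of the members tested in either comparison. In inhibitory types it had 4.00, 4.21 and 2.20 CPM in the 17-, 18- and 24-day vGat sets, against a lowest of 42.7, a median of 45.99 and a highest of 112.9 CPM in wild-type sets (-4.28 ± 0.37, edgeR adjusted p = 6.39e-09). In excitatory types it had 0, 0, 6.65 and 55.2 CPM in the 23-, 24-, 25- and 26-day vGlut2 sets, against a lowest of 68.1, a median of 89.4 and a highest of 159.8 CPM in wild-type sets (-3.68 ± 0.52, adjusted p = 5.28e-05, and -4.33 without the 26-day set). The reporter sets lay below the wild-type sets in both classes. Plxnb3, a receptor of Sema5a, had 1.71, 6.13 and 1.47 CPM in vGat sets, against 22.0, 31.8 and 72.7 CPM as the lowest, median and highest of wild type (-3.54 ± 0.45, adjusted p = 2.11e-06, and -4.54 without the 18-day vGat set). In excitatory types it had 0, 0, 5.62 and 73.7 CPM in vGlut2 sets, against 10.3, 43.4 and 97.5 CPM (-2.73 ± 0.70, adjusted p = 0.00979). Without the 26-day set this was -3.72, and without the 25-day set -1.94, no longer past the threshold (adjusted p = 0.195). In Unc5b and Plxnb3 the 26-day set, with 12 excitatory cells, was the only vGlut2 set above 10 CPM. That set was also high in oligodendrocyte markers, whose part in these values was not tested.

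Efnb3 was lower in both lines, with 118.2, 139.8 and 121.1 CPM in vGat sets, against 204.9, 288.9 and 333.7 CPM as the lowest, median and highest of wild-type inhibitory types (-1.19 ± 0.17, edgeR adjusted p = 1.1e-05). In excitatory types it had 104.9, 76.5, 138.05 and 267.02 CPM in vGlut2 sets, against 210.8, 274.7 and 340.01 CPM in wild type (-1.08 ± 0.26, adjusted p = 0.00608), and the 26-day set lay within the wild-type range (-1.38 without it). Sema6a had 22.3, 42.9 and 27.2 CPM in vGat sets, against 50.9, 102.5 and 147.98 CPM in wild type (-1.77 ± 0.26, adjusted p = 1.14e-05), and 8.74, 9.57, 15.3 and 9.21 CPM in vGlut2 sets, against 49.9, 80.1 and 151.8 CPM (-2.87 ± 0.32, adjusted p = 6.13e-06). Here the 26-day set was as low as the other vGlut2 sets. Ephb1 (-1.29 and -1.05) and Sema4d (-1.33 and -1.53) were lower in both lines as well, in inhibitory and excitatory types in that order. Sema4d, a ligand of Plxnb1, had 8.74, 19.1, 10.7 and 73.7 CPM in the 23-, 24-, 25- and 26-day vGlut2 sets, the last above all wild-type sets (22.2 to 71.7 CPM). Its difference in excitatory types was -2.08 without the 26-day set and -0.88 without the 25-day set, and its call was lost in 7 of 17 alternatives, among them age as a covariate, DESeq2 and each of the 20-, 21- and 27-day wild-type sets left out. Sema4c (-2.73, adjusted p = 0.00017) and Sema6c (-1.84, adjusted p = 0.00193) were lower in the vGat line and were not tested in excitatory types. In the vGlut2 line Sema7a (-3.29, and -3.71 without the 26-day set), Epha4 (-1.88), Efna5 (-0.91), Dcc (-0.88) and Sema5a (-0.74) were lower, and the Dcc and Sema5a calls were lost in 14 and 12 of 17 alternatives. Without the 23-day vGlut2 set, the excitatory-type calls of Plxnb3, Epha4, Sema4d, Efnb3, Ephb1 and Efna5 were lost too, and without the 25-day set those of Sema7a, Plxnb3, Epha4, Sema4d, Efnb3 and Ephb1.

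Nrp1 was higher in both lines. It had 161.5, 202.6 and 226.8 CPM in vGat sets, against 79.7, 113.1 and 130.9 CPM as the lowest, median and highest of wild-type inhibitory types (0.85 ± 0.18, edgeR adjusted p = 0.00105). In excitatory types it had 131.2, 114.8, 152.4 and 202.6 CPM in vGlut2 sets, against 43.4, 69.7 and 104.5 CPM in wild type (0.98 ± 0.22, adjusted p = 0.00425), so that all sets of either line lay above wild type. Epha7, an A-class Eph receptor, had 71.4, 62.8 and 58.7 CPM in vGat sets, against 7.32, 22.8 and 67.9 CPM (1.15 ± 0.29, adjusted p = 0.00613), and 50.3, 47.8, 48.1 and 55.2 CPM in vGlut2 sets, against 13.8, 21.7 and 29.9 CPM (1.08 ± 0.26, adjusted p = 0.00725). The vGlut2 sets lay above the wild-type range, while 1 wild-type set reached into the vGat range. Plxna2 was higher in inhibitory types of the vGat line (0.59 ± 0.18, adjusted p = 0.0201) and in excitatory types of the vGlut2 line (0.83 ± 0.21, adjusted p = 0.0108). Sema6d was higher in the vGat line (0.77, adjusted p = 0.0252), and Sema3c (1.30, adjusted p = 0.0135) and Ephb6 (1.05, adjusted p = 0.00731) in the vGlut2 line. Over cells of all lines Sema3c and Plxna2 had their highest levels in Glut5 to Glut7, which take a larger share of that line's cells. Within Glut7, Sema3c had 174.2 CPM in vGlut2-line cells and 206.5 CPM in wild-type cells, and within Glut6 it had 221.4 CPM in vGlut2-line cells and 136.6 CPM in wild-type cells. Plxna2 had 324.5 CPM in vGlut2-line cells and 173.2 CPM in wild-type cells of Glut7. Without the 25-day set, Nrp1 was the 1 member of these 5 still called higher in the vGlut2 line. In inhibitory types the Plxna2 call was lost without the 18- or 24-day vGat or the 20-day wild-type set, and the Sema6d call without the 17- or 24-day vGat or the 20- or 21-day wild-type set.

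**Figure D5:**
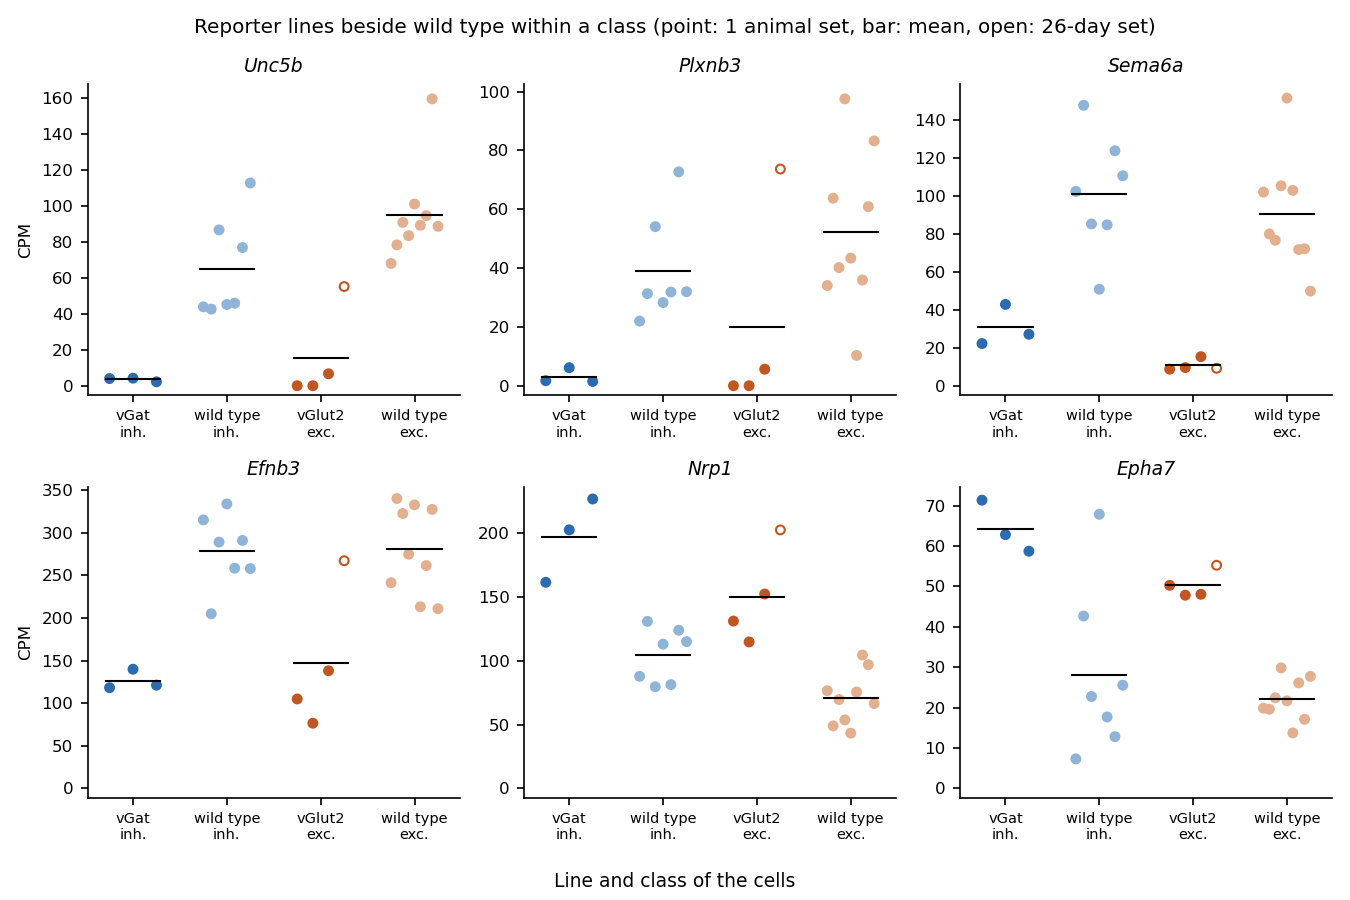
CPM per animal set of Unc5b, Plxnb3, Sema6a, Efnb3, Nrp1 and Epha7 in cells of inhibitory types (vGat, then wild type) and excitatory types (vGlut2, then wild type), with bars for the means and the 26-day vGlut2 set as an open circle. Unc5b is at 2.20 to 4.21 CPM in vGat sets and above 40 CPM in each wild-type set, while Nrp1 is above the wild-type range in both lines.

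Age gave no call among the members. In simulated counts, with changes planted in better counted genes, the age fits recovered 47.4% of 4-fold changes over 10 days in excitatory and 25% in inhibitory types. A lack of calls is therefore no evidence that the members stay constant with age. In wild-type sets labelled male, none of 33 members tested in excitatory types (8 sets, 18 to 28 days) and none of 28 in inhibitory types (6 sets) had a slope past the threshold, where 0.0135% of genes rose and 0.0135% fell with age in excitatory types and 0.0315% rose and 0.0157% fell in inhibitory types. At an unadjusted p under 0.05 edgeR gave 1 of 33 members in excitatory types, where 8.28% of genes had such a p, and 5 of 28 in inhibitory types, where 6.68% had. DESeq2 gave 0 members past the adjusted threshold in either class.

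A list of 77 partners and effectors of guidance signalling (adhesion partners, collapsin response proteins and teneurins among them), of which 74 are in the table, gave 11 higher and 3 lower genes of 68 tested in the vGat line, where 4.32% of all genes were higher and 4.53% lower. The median log2 difference was 0.16 over the list and -0.01 over all genes. In wild-type classes it gave 4 higher and 2 lower of 59, where 3.17% and 2.46% of all genes were, with a median of 0.06, against -0.01 over all genes. Dscaml1, a homophilic adhesion protein, was higher in the vGat line by 3.95 on the log2 scale (edgeR adjusted p = 7.27e-06). Dscam, a related protein that can also bind netrin, was lower (-2.61), so that this pair of related genes differed in opposite directions. In wild type Dscaml1 was higher in inhibitory types (1.88 ± 0.29, edgeR adjusted p = 0.000176) and Dscam lower (-2.34 ± 0.29, adjusted p = 1.26e-05).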

How the data were processed

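The deposited table holds UMI counts, whole numbers of distinct RNA molecules per gene and cell, which the authors made from single-cell libraries. Per the submitters' processing notes, Cell Ranger and the mouse build mm10 were used, while the sources used here give neither its version nor a cell filter. Types are the authors' deposited names. From the counts, sums per animal set, and per set and class or type, were tested with edgeR 4.0.16 (quasi-likelihood test, TMM scaling, filterByExpr, Benjamini-Hochberg adjustment over all genes tested, threshold 0.05) in R 4.3.3. DESeq2 1.42.0 and limma 3.58.1 served as alternatives. Levels are CPM of summed counts with exact Poisson 95% intervals, and shares of cells were taken after thinning to 3000 molecules, with exact binomial intervals. Both cover counting error only. Since the labels name no animals, p-values set a difference against the spread between sets, which may be partly technical. Without the filter on low counts they were far smaller at a similar standard error. For Sema3c between lines edgeR gave p = 1.94e-18 (SE 0.25) without it and p = 1.68e-07 (SE 0.27) with it. Those without the filter rest mostly on a spread shared over genes, not on the gene's own spread between sets. The tests were checked on simulated counts of a fixed spread. Changes were planted only in genes above a set level, which members such as Sema3e (22.0 CPM over all cells) and Plxnb1 (13.1 CPM) do not reach. Recovery for such members was not simulated. Shares recovered are of the planted genes that passed the filter, for Glut7 44 with a 2-fold and 52 with a 4-fold change. Of 2-fold changes, 13% were recovered between lines, 39% between classes and 31.8% in a single type (Glut7). Of 4-fold changes these shares were 93%, 100% and 92.3%. The age fits recovered 5.1% of 2-fold changes over 10 days in excitatory and 2.2% in inhibitory types, and 47.4% and 25% of 4-fold ones. False calls were 0 to 2.1% of calls, and 14.3% in the inhibitory age fit.

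The members and gene lists were chosen with earlier results of these data known. Members with at least 50 molecules are named, with full values for those called between lines or classes and, for each member called among types, up to 3 types and the lowest one. Values of other members and the comparison of lines with wild type were chosen after the data had been seen. The class comparison was paired because each set gave both classes.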

Additional observations from a re-analysis of the deposited data

Results flagged for a closer look

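In 67 groups of 4 to 10 animal sets, 9 held a set whose distance from its nearest neighbour was large for the range of the group (Dixon's test, 95% level). The nominal rate of the test, about 1 of 20 groups, holds for independent and normal values. These groups share animal sets across genes, cover only called members and hold low counts, so their chance rate is not known.

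Of these, 5 belonged to the 26-day vGlut2 set of 17 cells, which also had the highest oligodendrocyte markers of its line, and whether the markers have a part in them was not tested. In it Unc5b had 55.25 CPM, where the nearest vGlut2 set had 6.65 CPM, Plxnb3 had 73.66 CPM (nearest 5.62 CPM), Sema4d had 73.66 CPM (nearest 19.1 CPM), Sema7a had 18.42 CPM (nearest 2.56 CPM) and Dcc had 18.42 CPM (nearest 28.7 CPM). Dcc was thus low in that set and the other 4 genes were high. Sema6a stood apart in the 25-day vGlut2 set, with 15.34 CPM (nearest 9.57 CPM).

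Among wild-type sets, Unc5b had 159.8 CPM in the 27-day set (nearest 101.2 CPM). Epha4 had 108.4 CPM and Sema5a had 419.3 CPM in the 22-day set labelled male, where the nearest sets had 55.2 and 218.8 CPM.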

How the results depend on the processing

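Between the vGat and vGlut2 lines (7 members higher, 6 lower), the count of higher members was 3 with DESeq2, 1 with age as a covariate, 1 with limma and 11 of 56 without the filter on low counts, and that of lower ones 2 with age as a covariate and 1 with limma. Leaving out 1 set gave 1 to 9 higher and 2 to 7 lower. Between wild-type classes (3 higher, 2 lower) the fit without the replicate block gave 0 higher and 1 lower of 25 tested, DESeq2 1 lower, and sums of at least 5 cells, limma and no filter 4 lower each. Leaving out 1 set gave 2 to 4 and 1 to 3. Among types (31 higher, 2 lower), wild-type cells alone gave 9 and 0, no filter 67 and 1, DESeq2 8 lower and RLE size factors 5 lower, and leaving out 1 set 18 to 31 and 0 to 3. The count of members that varied among excitatory types (6) was 3 with at least 5 cells and 21 without the filter, and 5 to 6 with 1 set left out. Among inhibitory types (16) it was 2 with wild-type cells alone, 28 without the filter and 8 to 18 with 1 set left out, with 8 and 9 without the 17-day and the 18-day vGat set. Against wild type, the vGat line gave 10 higher without the filter (4 with it), and with 1 set left out 2 to 6 higher and 7 to 10 lower. The vGlut2 line gave 1 to 6 higher and 3 to 11 lower. Age gave 0 in each setting run. Sema3c in Glut5 reversed to -2.69 with wild-type cells alone. For called members, the call was lost in 38.7% of values under the alternatives between lines, 17.7% between classes, 4.82% and 17.6% in the vGat and vGlut2 lines against wild type, and 17.9% for types against their class. The causes were not tested. At these depths low members fell under the filter, and in small sets 1 molecule weighs much.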

Other observations

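The type whose labels name both classes held 18 cells, 17 of them wild type. There Efnb3 had 365.8 CPM, Sema5a 161.8 CPM, Unc5b 133.7 CPM and Sema6a 126.6 CPM, in sums over these cells. Oligodendrocyte markers summed to 59777 CPM in it, against 3245 to 34125 CPM in the other types.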
